A study of Mus musculus with 12 samples.

Results

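The RAS-MAPK feedback genes described here are 10 genes tied to the feedback on RAS and the extracellular signal-regulated kinases (ERK), namely *Dusp1*, *Dusp2*, *Dusp4*, *Dusp5*, *Dusp6*, *Spry1*, *Spry2*, *Spred1*, *Spred2* and *Ier3*. They were chosen by name, and all 10 were among the 15651 genes of the expression table. RNA-seq was done on c-Kit+ splenocytes, enriched for this stem cell factor receptor, from moribund mice with acute myeloid leukemia (AML) of 2 genotypes, with 3 mice of each. *D/F* cells carried Dnmt3a fl/fl, Flt3 ITD/ITD and Mx1Cre, and *T/F* cells carried Tet2 fl/fl, Flt3 ITD/ITD and Mx1Cre, so homozygous Flt3 ITD, the internal tandem duplication that makes this receptor kinase active without ligand, and the Cre transgene were shared by all 12 libraries. Each mouse gave 1 culture of 6 h with SCF, IL6 and IL3 and CCS1477, an inhibitor of the bromodomains of the acetyltransferases p300 and CBP, and 1 with its solvent DMSO. The dose was 4 µM for *D/F* and 2 µM for *T/F*, so genotype and dose cannot be told apart wherever the responses of the genotypes are compared. Cre is driven by the interferon-inducible Mx1 promoter and, per the methods of the study, was relied on at its leaky activity. This promoter is also active outside blood cells. The age of the mice and a group without Flt3 ITD were not analysed here.

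Growth factor receptors such as KIT, FLT3 and the IL3 receptor load RAS with GTP, which starts a relay from RAF through MEK to ERK. ERK then turns on genes that damp the same relay. *Ier3* differs from the other members, since its product is known to hinder the dephosphorylation of ERK. The dual-specificity phosphatases (DUSPs) remove the activating phosphates from ERK or its relatives p38 and JNK, Sprouty and SPRED proteins act upstream at RAS and RAF, and FLT3 ITD is known to keep this pathway switched on, which is why the level of such genes is often read as a measure of ERK output in AML.

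With CCS1477 the 10 genes did not move as a block. *Ier3* was higher with CCS1477 than with DMSO in 6 of 6 mice and was the one member called in *D/F* without pairing, where a call is a change above 2-fold at an adjusted p under 0.05. With the 2 libraries of a mouse paired in the fit, *Dusp5* was called in *D/F* as well (limma, log2 -1.14, adjusted p = 0.0295). *Dusp5*, *Spry1*, *Dusp2* and *Spred2* were lower in 6 of 6 mice, *Spry2* was higher in 6 of 6, and *Dusp6* was lower in the 3 *D/F* mice but moved little in *T/F*. The share of all genes that moved 1 way in 6 of 6 mice was not computed, so this does not set the members apart. *Dusp1*, *Dusp4* and *Spred1* had mice on either side of their DMSO level in each genotype.

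The values are TPM, that is, transcripts scaled to a fixed total, a share of all transcript molecules corrected for transcript length, so levels can be set beside each other between genes. Over the 12 libraries *Ier3* had the highest mean (73.3 TPM), followed by *Spred1* (31.5 TPM), *Dusp5* (28.2 TPM), *Spred2* (26.3 TPM) and *Dusp2* (17.3 TPM). *Dusp6* (13.0 TPM), *Dusp1* (11.0 TPM) and *Spry2* (10.2 TPM) came next, and *Spry1* (2.00 TPM) and *Dusp4* (1.02 TPM) were near the floor of the table. The ranges over libraries overlapped between every pair of neighbours in this order except *Spry2* and *Spry1*, whose ranges were 6.97 to 14.6 TPM and 0.762 to 3.65 TPM. *Ier3* lay above 84.6% of all genes by its mean, and *Dusp4* above 2.90%.

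**Figure D1:**
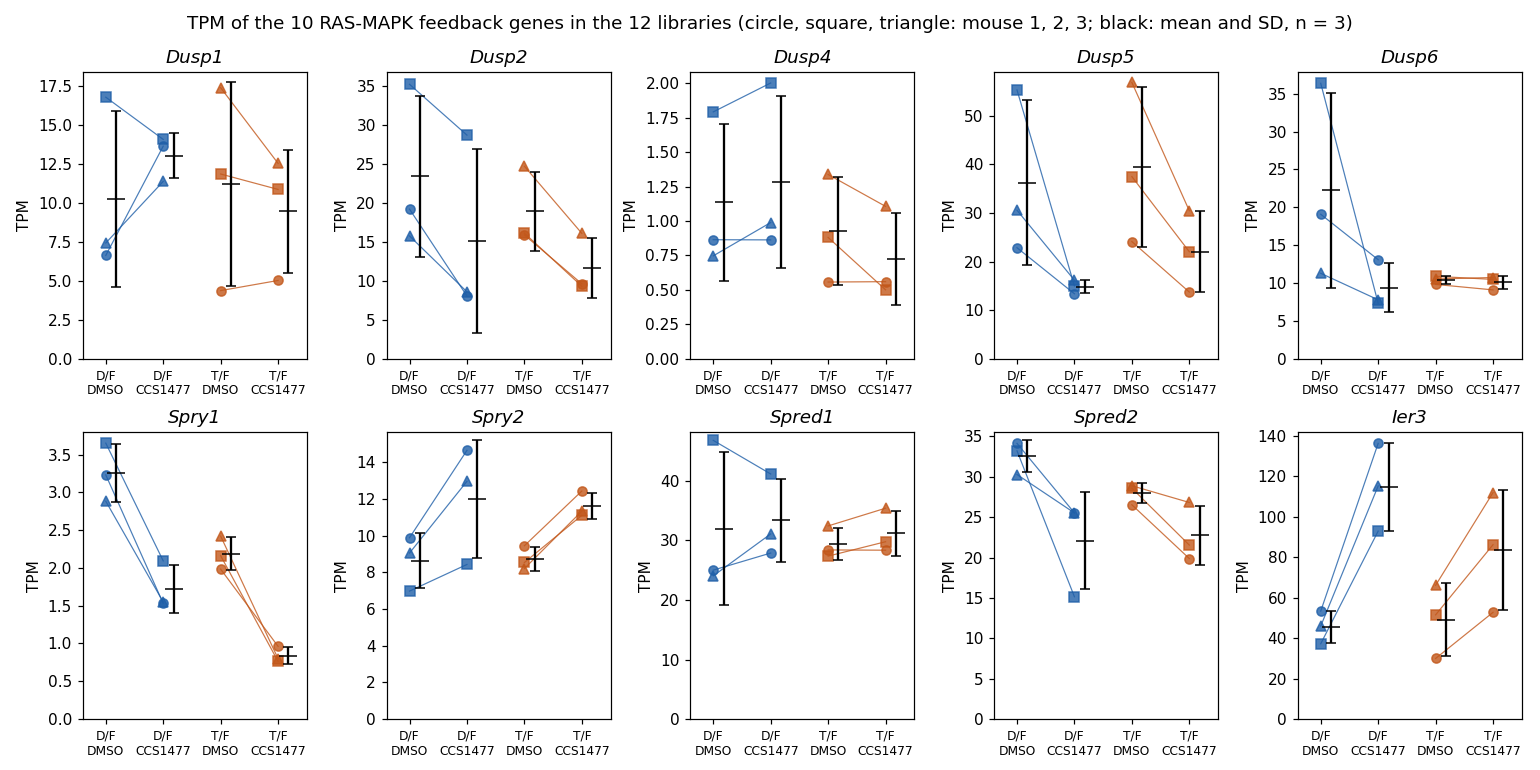
TPM (linear axes from 0) of each of the 10 genes in the 4 groups, with 1 line joining the DMSO and CCS1477 libraries of a mouse (circle, square and triangle for mouse 1, 2 and 3) and the mean and SD (n = 3) in black. *Ier3* climbs and *Dusp5* and *Spry1* drop in all 6 mice, while *D/F* mouse 2 sets the top of the DMSO range for *Dusp1*, *Dusp2*, *Dusp4*, *Dusp5*, *Dusp6*, *Spry1* and *Spred1* in its genotype.

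The libraries of *D/F* mouse 2 stood apart from the other libraries of their genotype. Their median gene was at 20.4 TPM with DMSO and 20.0 TPM with CCS1477, against 16.1 to 17.4 TPM in the other 4 *D/F* libraries. The summed TPM of 8 blast and myeloid progenitor markers (Kit, Cd34, Flt3, Mpo, Elane, Prtn3, Ctsg and Ms4a3, all in the table and above 0 in every library) was 3876 with DMSO in this mouse against 8677 and 10966 in the other *D/F* mice, and that of 5 megakaryocyte markers was 218 against 36.5 and 52.0. Not every blast marker followed the sum. With DMSO *Kit* was highest in this mouse (149 TPM against 50.5 and 60.9 TPM), as was *Flt3* (46.0 TPM against 9.86 and 25.9 TPM). The summed TPM of 7 neutrophil markers was lowest there among *D/F* mice, at 2711 with DMSO (others 9406 and 6280) and 1667 with CCS1477 (others 9340 and 6645). In *T/F* that sum was lowest in mouse 3, at 2364 with DMSO (others 7167 and 5670) and 2524 with CCS1477 (others 6923 and 5205). With CCS1477 the blast markers summed to 808 to 4438 TPM in *D/F* (3876 to 10966 with DMSO) and 1773 to 3197 TPM in *T/F* (4737 to 7117 with DMSO). Of the 8 blast markers 7 were called lower over both genotypes (5.7% of all genes). With each genotype fitted alone 0 were called lower in *D/F* (4.61% of genes) and 4 in *T/F* (4.7%). The 4 of 6 macrophage markers in the table (Adgre1, C1qb, C1qc and Vcam1) summed to 16.0 to 22.3 TPM with DMSO and 2.72 to 4.31 TPM with CCS1477 in *D/F*, and to 19.3 to 32.1 TPM and 5.93 to 12.3 TPM in *T/F*. The 3 of 6 B cell markers in the table (Cd79b, Pax5 and Ighm) summed to 49.8 to 59.0 TPM with DMSO and 104 to 132 TPM with CCS1477 in *T/F*, where Ighm alone was higher (33.1 to 41.7 and 93.1 to 118 TPM) and the other 2 were lower at any fold. The 3 of 7 mast cell and basophil markers in the table (Cpa3, Mcpt8 and Ms4a2) were all called lower over both genotypes, and 1 of the 3 in each genotype alone. Their sums were 87.0 to 182 TPM with DMSO and 17.8 to 40.3 TPM with CCS1477 in *D/F*, and 39.7 to 78.9 TPM and 18.1 to 38.2 TPM in *T/F*. In bulk RNA, fewer cells of a type and less RNA per cell cannot be told apart, and the part of these shifts in the changes of the feedback genes was not tested. With DMSO *Dnmt3a* was lower in *D/F* and *Tet2* was lower in *T/F*, but neither passed (limma, log2 difference of *T/F* minus *D/F* 0.24 and -0.30, adjusted p = 0.953 and 0.803). A level summed over a transcript does not show whether the floxed exons were lost, so these values do not check the genotype labels.

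The nuclear phosphatases were taken first. *Dusp5* encodes a nuclear phosphatase specific for ERK, and its gene lies on chromosome 19 from 53529109 to 53542431 (plus strand, GRCm38), with a transcript of 4 exons. In *D/F* it was at 22.9, 55.3 and 30.6 TPM with DMSO in mice 1 to 3 and at 13.4, 15.0 and 16.2 TPM with CCS1477. All 3 CCS1477 libraries lay below all 3 DMSO libraries, and their spread was small beside that of the DMSO libraries (SD 1.40 against 17.0 TPM, n = 3). In *T/F* it was at 24.1, 37.5 and 56.9 TPM with DMSO and 13.7, 22.0 and 30.5 TPM with CCS1477, where the groups overlapped because mouse 3 with CCS1477 was above mouse 1 with DMSO. Each *T/F* mouse kept 0.569, 0.588 and 0.536 of its own DMSO level. An antisense transcript, AC137853.2, overlaps the start of *Dusp5* and was not among the genes of the table. *Dusp5* was not called in either genotype by limma without pairing (log2 -1.14 ± 0.32 SE, adjusted p = 0.0671 in *D/F*; log2 -0.80 ± 0.39 SE, adjusted p = 0.153 in *T/F*). With the mouse as a block it passed in both (adjusted p = 0.0295 and 0.00248), above 2-fold in *D/F* alone. Without pairing it passed in *D/F* with libraries rescaled to their median gene (adjusted p = 0.0304) or quantile normalized (adjusted p = 0.0344). Over both genotypes it was lower by 0.97 ± 0.26 SE (log2 -0.97, adjusted p = 0.0107), short of 2-fold. Without *D/F* mouse 2, which had the highest DMSO value of its genotype, the *D/F* difference was -0.80 (adjusted p = 0.0517).

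The bases ahead of *Dusp5* are shown beside those of *Dusp1* and *Ier3* because these promoters carry the matches to known growth factor response elements or belong to the member that was called. Each line gives 200 bases that end 51 bases before the RefSeq start of the gene, read 5′ to 3′ on the strand of the gene from RefSeq on GRCm38.p6, and capitals mark motif matches. *Dusp5* is at chr19:53528895-53529094 (plus strand), *Dusp1* at chr17:26508523-26508722 (minus strand) and *Ier3* at chr17:35821463-35821662 (plus strand).

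Dusp5: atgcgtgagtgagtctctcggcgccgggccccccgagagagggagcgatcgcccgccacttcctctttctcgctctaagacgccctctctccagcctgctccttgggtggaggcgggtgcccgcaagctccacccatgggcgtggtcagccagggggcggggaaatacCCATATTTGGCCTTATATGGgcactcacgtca

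Dusp1: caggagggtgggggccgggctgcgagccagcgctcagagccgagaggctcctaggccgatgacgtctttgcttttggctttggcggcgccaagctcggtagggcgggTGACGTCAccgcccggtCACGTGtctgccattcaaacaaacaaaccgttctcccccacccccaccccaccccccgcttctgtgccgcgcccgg

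Ier3: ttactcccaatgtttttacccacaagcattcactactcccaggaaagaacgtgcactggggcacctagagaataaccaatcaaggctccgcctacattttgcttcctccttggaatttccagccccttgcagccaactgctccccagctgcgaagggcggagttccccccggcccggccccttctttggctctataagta

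The capitals in *Dusp5* are 2 adjoining CArG boxes, the sequence bound by serum response factor (SRF), at -82 to -73 and -72 to -63 from the start. In *Dusp1* they are a cyclic AMP response element (CRE, TGACGTCA) at -143 to -136 and an E-box (CACGTG), the site of MYC and its relatives, at -126 to -121. The motifs searched, on both strands, were the CRE, the AP-1 site (TGANTCA), the ETS core (CCGGAA), the E-box and the CArG box, with no overlap among the matches found. Of 32817 RefSeq promoters cut to the same window, 1.16% held a CArG box, 0.829% a CRE, 4.34% an E-box, 5.58% an AP-1 site and 8.02% an ETS core. RefSeq promoters were matched for 9 of the 10 members, all but *Dusp4*, and beside the 2 genes above *Dusp2* held an E-box at -109 to -104. None of these letters lay in the window of *Ier3*, *Dusp6*, *Spry1*, *Spry2*, *Spred1* or *Spred2*. A match is a description of the sequence and not of binding, which was not measured in this table.

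*Dusp1* encodes the immediate-early nuclear phosphatase MKP-1, which prefers p38 and JNK over ERK (chromosome 17 from 26505590 to 26562128, minus strand). It was at 6.64, 16.8 and 7.44 TPM with DMSO in *D/F* and at 13.7, 14.1 and 11.4 TPM with CCS1477. Mice 1 and 3 were higher with the drug and mouse 2 was lower, and the groups overlapped. In *T/F* the values were 4.38, 11.9 and 17.4 TPM with DMSO and 5.03, 10.9 and 12.6 TPM with CCS1477, so that the mice differed among themselves more than the treatments did. It passed in no fit over all libraries (log2 0.42 ± 0.34 SE, adjusted p = 0.447 in *D/F*; log2 -0.13 ± 0.53 SE, adjusted p = 0.861 in *T/F*). The *D/F* value rested on mouse 2: without its libraries the difference was 0.75 with an adjusted p of 0.0330 by limma, below 2-fold. The GENCODE span of *Dusp1* overlaps *Ergic1* (from 26561489) on the other strand, at the 5′ end of the span. The RefSeq start behind the promoter window shown (26508523 to 26508722) lies well inside that span, so the 2 annotations differ in their start. Whether reads were assigned by strand is not given in the sources used here.

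*Dusp2* encodes PAC-1, an inducible nuclear phosphatase of blood cells (chromosome 2 from 127336159 to 127338376). In *D/F* it was at 19.2, 35.2 and 15.7 TPM with DMSO and at 8.05, 28.7 and 8.58 TPM with CCS1477. Mouse 2 was highest under both treatments and dropped least, to 0.815 of its DMSO level against 0.420 and 0.545 in mice 1 and 3. The *T/F* values were 15.9, 16.1 and 24.7 TPM with DMSO and 9.61, 9.30 and 16.1 TPM with CCS1477. The 3 *T/F* mice kept 0.605, 0.577 and 0.651, a narrow band. In the fits without pairing and with TPM as deposited it did not pass (log2 -0.75 ± 0.53 SE, adjusted p = 0.386 in *D/F*; log2 -0.66 ± 0.26 SE, adjusted p = 0.0877 in *T/F*; log2 -0.71 ± 0.31 SE, adjusted p = 0.0820 over both). With the mouse as a block it did in each (adjusted p = 0.0433, 0.00316 and 0.000958). Without *D/F* mouse 2 and without pairing the *D/F* difference was -0.98 (adjusted p = 0.0220) and that over both genotypes -0.79 (adjusted p = 0.00416). Without pairing it also passed at any fold in *T/F* and over both genotypes with libraries rescaled to their median gene (adjusted p = 0.0413 and 0.0297) or quantile normalized (adjusted p = 0.0404 and 0.0346).

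*Dusp4*, which encodes the nuclear ERK and JNK phosphatase MKP-2 (chromosome 8 from 34807297 to 34819894), was close to the detection floor. It ranged from 0.501 to 2.00 TPM over the 12 libraries, with the 2 highest values in *D/F* mouse 2. It passed the filter of a mean of 1 TPM in *D/F* but not in *T/F*, where it was not tested. In *D/F* the groups overlapped and the difference was 0.10 ± 0.27 SE (log2, adjusted p = 0.848).

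*Dusp6* encodes MKP-3, the cytoplasmic phosphatase that acts on ERK and is among the most used readouts of ERK activity (chromosome 10 from 99263231 to 99267489). In *D/F* it was at 19.1, 36.4 and 11.3 TPM with DMSO and at 13.1, 7.32 and 7.78 TPM with CCS1477. The groups overlapped, since mouse 1 with the drug was above mouse 3 without it. Mouse 2 fell to 0.201 of its DMSO level and mice 1 and 3 to 0.686 and 0.690. In *T/F* it was at 9.82, 10.9 and 10.5 TPM with DMSO and at 9.10, 10.5 and 10.7 TPM with CCS1477, ratios of 0.926, 0.963 and 1.02. It did not pass by limma with each genotype fitted alone (log2 -1.05 ± 0.43 SE, adjusted p = 0.159 in *D/F*, and log2 -0.04 ± 0.08 SE, adjusted p = 0.714 in *T/F*). In a shared fit of the 4 groups the *D/F* difference did pass (adjusted p = 0.0369). The 95% confidence interval of the *T/F* difference ran from -0.25 to 0.16 on the log2 scale. Without *D/F* mouse 2 the *D/F* difference was -0.50 (adjusted p = 0.345).

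The Sprouty genes moved in opposite directions. *Spry1* (chromosome 3 from 37639947 to 37644598), whose product is recruited to the membrane after growth factor stimulation and blocks the path from receptors to RAS and RAF, was at 3.23, 3.65 and 2.88 TPM with DMSO in *D/F* and at 1.53, 2.09 and 1.55 TPM with CCS1477. The *T/F* values were 1.98, 2.16 and 2.42 TPM with DMSO and at 0.962, 0.762 and 0.799 TPM with CCS1477. Every library with CCS1477 lay below every DMSO library of its genotype. The *D/F* mice kept 0.473, 0.573 and 0.537 of their DMSO level, and the *T/F* mice 0.485, 0.353 and 0.330. The difference on the log2(TPM + 1) scale, which understates changes at such low levels, was -0.65 ± 0.16 SE in *D/F* (adjusted p = 0.0502) and -0.79 ± 0.08 SE in *T/F* (adjusted p = 0.00119). It passed at any fold in *T/F* but not above 2-fold, and with a pseudocount of 0.1 TPM it was -1.28 in *T/F* (adjusted p = 0.00125). With the mouse as a block *D/F* passed as well (adjusted p = 0.0112). Over both genotypes *Spry1* had the lowest adjusted p of the members (4.50e-05, log2 -0.72 ± 0.08 SE). Its levels were low, at 0.762 to 3.65 TPM, and the number of reads behind a TPM value is unknown. The start of *Spry1* overlaps Gm42922 on the other strand, which was not among the genes of the table.

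*Spry2* (chromosome 14 from 105891947 to 105896819, minus strand), a second inhibitor of receptor signalling to RAS, was at 9.88, 6.97 and 9.05 TPM with DMSO in *D/F* and at 14.6, 8.43 and 13.0 TPM with CCS1477. With *T/F* cells the values were 9.45, 8.53 and 8.20 TPM with DMSO and at 12.4, 11.1 and 11.3 TPM with CCS1477. The groups did not overlap in *T/F*, and in *D/F* mouse 2 with the drug stayed below mice 1 and 3 without it. The *T/F* difference passed at any fold (log2 0.38 ± 0.08 SE, adjusted p = 0.0121) and the *D/F* difference did so only with the mouse as a block (log2 0.41 ± 0.24 SE, adjusted p = 0.300, and 0.0394 with the block). Over both genotypes it was 0.39 ± 0.12 SE (adjusted p = 0.0227). The passing values of *Spry2* were lost when libraries were rescaled to their median gene (adjusted p = 0.0573 for *T/F* and 0.123 over both) or quantile normalized (adjusted p = 0.0791 and 0.205). They were also lost in *T/F* without any 1 of its mice (adjusted p from 0.0510 to 0.0883), and over both genotypes without *D/F* mouse 3 or any *T/F* mouse (highest adjusted p = 0.0690).

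*Spred1* and *Spred2*, whose proteins bind neurofibromin and bring this RAS inactivator to the membrane, were among the better expressed members. *Spred1* (chromosome 2 from 117121374 to 117182279) was at 25.0, 46.8 and 24.1 TPM with DMSO in *D/F* and at 27.9, 41.2 and 31.1 TPM with CCS1477. In *T/F* all 6 libraries lay between 27.4 and 35.4 TPM. The groups overlapped in both genotypes and the differences were 0.11 ± 0.30 SE (adjusted p = 0.845) and 0.08 ± 0.11 SE (adjusted p = 0.598) on the log2 scale, with a 95% confidence interval over both genotypes from -0.26 to 0.45.

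*Spred2* (chromosome 11 from 19924375 to 20024026) was at 34.1, 33.2 and 30.3 TPM with DMSO in *D/F* and at 25.5, 15.1 and 25.5 TPM with CCS1477, with no overlap of the groups. In *T/F* it was at 26.5, 28.6 and 28.9 TPM with DMSO and at 19.9, 21.5 and 26.8 TPM with CCS1477. Mouse 3 moved least there, to 0.928 of its DMSO level, and the groups overlapped. Neither genotype passed alone (log2 -0.58 ± 0.23 SE, adjusted p = 0.153 in *D/F*; log2 -0.30 ± 0.12 SE, adjusted p = 0.0922 in *T/F*), and the *T/F* difference passed with the mouse as a block (adjusted p = 0.0471), with libraries rescaled to their median gene (adjusted p = 0.0249) and with quantile normalization (adjusted p = 0.0405). Over both genotypes *Spred2* was lower at any fold (log2 -0.44 ± 0.13 SE, adjusted p = 0.0198), with -0.31 (adjusted p = 0.0103) without *D/F* mouse 2, and did not pass without *T/F* mouse 1 or 2 (highest adjusted p = 0.0580).

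*Ier3* encodes IEX-1, a small early-response protein that is phosphorylated by ERK, hinders ERK dephosphorylation and acts on cell survival (chromosome 17 from 35821684 to 35822923, with a transcript of 2 exons). In *D/F* it was at 53.4, 37.2 and 46.0 TPM with DMSO and at 136, 93.0 and 115 TPM with CCS1477. All CCS1477 libraries lay above all DMSO libraries, and mice 1 to 3 changed by ratios of 2.55, 2.50 and 2.51. *T/F* cells were at 30.0, 51.5 and 66.1 TPM with DMSO and at 52.8, 86.3 and 112 TPM with CCS1477. The mice started from unlike levels, so the groups overlapped, yet the ratios were 1.76, 1.67 and 1.69. *Ier3* was called in *D/F* (log2 1.31 ± 0.21 SE, adjusted p = 0.0180) and over both genotypes (log2 1.04 ± 0.23 SE, adjusted p = 0.00372), and not in *T/F* (log2 0.76 ± 0.38 SE, adjusted p = 0.157). With the mouse as a block the *T/F* difference passed at any fold (adjusted p = 0.00232). Without *D/F* mouse 2 the *D/F* value was 1.32 (adjusted p = 0.0163), whereas without mouse 1 or mouse 3 the value was 1.30 or 1.32 but the call was lost (adjusted p = 0.157 and 0.244). Over both genotypes it was 0.98 without that mouse (adjusted p = 0.00972) and 0.98 without *D/F* mouse 1 or 3 (adjusted p = 0.0157 and 0.0208), just under 2-fold, so that the call over both genotypes ended without any 1 *D/F* mouse. It also ended with libraries rescaled to their median gene (0.97, adjusted p = 0.00671).

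**Figure D2:**
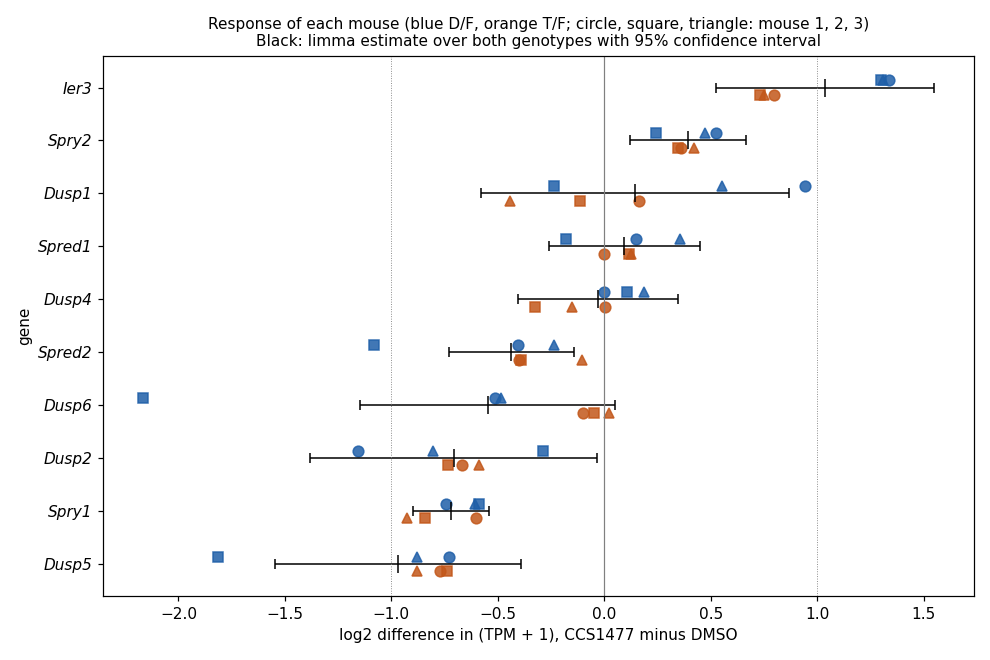
Log2 difference in (TPM + 1) of CCS1477 minus DMSO for each mouse (blue for *D/F*, orange for *T/F*; circle, square and triangle for mouse 1, 2 and 3), with the limma estimate over both genotypes and its 95% confidence interval in black and dotted lines at 2-fold. The *Ier3* points form 2 tight groups by genotype, from 1.30 to 1.34 for *D/F* and from 0.73 to 0.80 for *T/F*, and *D/F* mouse 2 lies far to the left for *Dusp6*, *Dusp5* and *Spred2*.

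Set against all genes tested, the members' counts were as follows. In *D/F* 1 of 10 members was called higher and 0 lower, where 2.67% of 15501 genes were called higher and 4.61% lower. At any fold the members' counts in *D/F* were again 1 and 0, with 5.14% of genes higher and 6.51% lower. With the mouse as a block 1 member was called higher (4.23% of genes) and 1 lower (6.97% of genes) above 2-fold, and 2 higher (21.4%) and 3 lower (18%) at any fold. In *T/F* 0 of the 9 members tested were called above 2-fold, where 2.63% of 15256 genes were called higher and 4.7% lower by limma, and 4 of the 9 had an unadjusted p under 0.05, as did 51.7% of all genes. At any fold 1 member was higher (25.8% of genes) and 1 lower (17.6%), and with the mouse as a block 2 were higher (31.2%) and 4 lower (22.9%). Over both genotypes 1 of 10 was called higher (3.1% of 15583 genes) and 0 lower (5.7%). At any fold 2 were higher (25.8%) and 3 lower (19.6%), and with the block 2 were higher (34.5%) and 4 lower (25.9%). Groups without overlap were seen in *D/F* for 1 member higher (19.9% of genes) and 3 lower (16.7%), and in *T/F* for 1 higher (33.5%) and 1 lower (22.6%). The members' median log2 difference was -0.24 for *D/F*, -0.13 for *T/F* and -0.23 over both, where the median of all genes tested was 0.06, 0.07 and 0.07. No share was tested as a set.

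The responses of the genotypes were compared directly, with the same libraries as above. No gene and no member passed (0% of 15583 genes; limma, lowest adjusted p = 0.768), and 659 genes but 0 members had an unadjusted p under 0.05. The largest difference among members was that of *Dusp6*, whose response was higher in *T/F* by 1.01 ± 0.48 SE (log2, unadjusted p = 0.0601, adjusted p = 1.00). Without *D/F* mouse 2 it was 0.46, smaller in size than those of *Dusp1* (-0.88) and *Ier3* (-0.56). For *Ier3* the response was lower in *T/F* (log2 -0.55 ± 0.46 SE, unadjusted p = 0.253). With the mouse as a block the unadjusted p for *Ier3* was 0.000369 and the adjusted p was 0.170, so its narrow ratios of 2.50 to 2.55 and 1.67 to 1.76 did not pass over all genes. The 95% confidence intervals for the other members differed in width, for example from -2.04 to 0.94 for *Dusp1* and from -0.86 to 1.55 for *Dusp5*. Narrower ones, within 2-fold either way, were those of *Spry1* (-0.51 to 0.22), *Spry2* (-0.61 to 0.54), *Spred1* (-0.78 to 0.72) and *Spred2* (-0.31 to 0.87).

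Between the genotypes no member passed under either treatment (limma), and 5 genes of 15265 with DMSO (0.0328%) and 5 of 15199 with CCS1477 (0.0329%) did. At an unadjusted p under 0.05 there were 939 genes and 1 member with DMSO and 1643 genes and 1 member with CCS1477. That member was *Spry1* both times. All its *T/F* libraries lay below all its *D/F* libraries under both treatments, as was so for 7.42% of genes with DMSO and 10.7% with CCS1477, and the differences were log2 -0.41 ± 0.13 SE with DMSO (adjusted p = 0.646) and -0.56 ± 0.12 SE with CCS1477 (adjusted p = 0.227). *Dusp6* and *Spred2* were also lower in all *T/F* than in all *D/F* libraries with DMSO (log2 -0.88 ± 0.39 SE, adjusted p = 0.825; log2 -0.21 ± 0.11 SE, adjusted p = 0.895), and with CCS1477 their groups overlapped. The *Dusp6* difference ranged from -1.26 to -0.46 with 1 library left out, the smallest being without *D/F* mouse 2. *Dusp5*, *Ier3*, *Dusp1* and *Spry2* overlapped between genotypes under both treatments.

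The receptors upstream were read next, since the medium held ligands for KIT and for the IL3 and IL6 receptors. Of 8 receptor genes 0 were higher and 5 lower over both genotypes at any fold, where 25.8% of all genes were higher and 19.6% lower. Above 2-fold 0 were higher and 2 lower, against 3.1% and 5.7% of all genes. The median log2 difference over both was -0.59 against 0.07 over all genes. With *D/F* fitted alone 0 of the 8 passed at any fold (6.51% of genes lower). With *T/F* fitted alone 2 were lower at any fold (17.6% of genes) and 0 above 2-fold. The count of 5 fell to 3 without *D/F* mouse 1 or *T/F* mouse 2 and to 2 without *D/F* mouse 3. *Kit* was at 50.5, 149 and 60.9 TPM with DMSO in *D/F* and at 22.8, 54.9 and 25.1 TPM with CCS1477, and at 50.5 to 67.0 and 24.2 to 42.6 TPM in *T/F* (log2 over both -1.10 ± 0.29 SE, adjusted p = 0.0101). *Flt3* was at 9.86 to 46.0 TPM with DMSO and 3.60 to 13.5 TPM with CCS1477 in *D/F*, and at 18.2 to 47.0 TPM and 7.72 to 19.3 TPM in *T/F* (log2 -1.40 ± 0.40 SE, adjusted p = 0.0146, and 0.0559 without *D/F* mouse 3). Both are also blast markers. *Il6ra* and *Il6st*, the subunits of the IL6 receptor, were lower at any fold (log2 -0.56, adjusted p = 0.00552, and log2 -0.53, adjusted p = 0.0419, the latter up to 0.129 with 1 mouse left out), and *Csf2rb*, the signalling subunit of the IL3 receptor, was at -0.61 (adjusted p = 0.0805, and 0.0264 with the mouse as a block). *Il3ra*, its ligand-binding subunit, was at 0.38 (adjusted p = 0.189, 0.0128 with the block and 0.0176 without *D/F* mouse 2). *Csf2rb2*, also on the receptor list, was the other gene of the 5 lower at any fold. It was at 28.9 to 65.4 TPM with DMSO and 14.3 to 29.5 TPM with CCS1477 in *D/F*. In *T/F* it was at 36.9 to 89.0 TPM with DMSO and 22.3 to 65.8 TPM with CCS1477.

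Within the relay from adaptors to ERK, 28 genes were tested and 12 were higher and 2 lower over both genotypes at any fold, with a median of 0.09. Above 2-fold, *Rras2* (12.7 to 19.6 TPM with DMSO and 34.2 to 49.2 TPM with CCS1477 in *D/F*, log2 over both 1.16 ± 0.17 SE) and *Rras* (7.24 to 12.9 and 13.5 to 29.0 TPM in *D/F*, log2 1.04 ± 0.18 SE) rose, both of them RAS-related GTPases. *Rasgrp2*, an exchange factor that activates RAP1, fell (245 to 319 TPM with DMSO and 77.1 to 116 TPM with CCS1477 in *D/F*, log2 -1.24 ± 0.17 SE, adjusted p = 0.000137). Among 20 other feedback and RAS-braking genes tested, 5 were higher and 5 lower at any fold, with a median of 0.19, and 10 were higher and 6 lower with the mouse as a block, where 34.5% and 25.9% of all genes were. The 5 higher genes became 8 without *D/F* mouse 2, and the 5 lower genes 3 without *D/F* mouse 1 or any *T/F* mouse. The 1 called above 2-fold was *Dusp10*, which encodes a phosphatase of p38 and JNK, at 1.32 to 3.69 TPM with DMSO and 6.29 to 11.5 TPM with CCS1477 in *D/F* and at 1.78 to 2.28 and 4.27 to 5.67 TPM in *T/F* (log2 1.18 ± 0.19 SE, adjusted p = 0.000545). All CCS1477 libraries lay above all DMSO libraries of their genotype.

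Downstream of ERK, 2 of 7 kinase genes were higher and 1 lower at any fold, with *Mknk2*, whose kinase phosphorylates the translation factor eIF4E, called higher (109 to 147 TPM with DMSO and 315 to 404 TPM with CCS1477 in *D/F*, log2 over both 1.23 ± 0.12 SE, adjusted p = 1.75e-05). Of 11 ETS and SRF factors 4 were higher and 3 lower, and the repressor *Etv6* fell (limma over both, log2 -1.63 ± 0.15 SE, adjusted p = 1.19e-05). It was at 124 to 174 TPM with DMSO and 34.4 to 37.2 TPM with CCS1477 in *D/F*, and at 113 to 147 and 43.8 to 60.8 TPM in *T/F*. Of 14 other genes known to be induced by ERK, 2 were higher and 4 lower, with a median of -0.15. The 3 called above 2-fold were *Myc* (log2 -3.83 ± 0.17 SE), the AP-1 subunit *Fosl1* (log2 -2.03 ± 0.11 SE) and cyclin D1, *Ccnd1* (log2 -1.31 ± 0.27 SE), all lower. *Fosl1* was at 10.7 to 14.3 TPM with DMSO and 1.55 to 2.07 TPM with CCS1477 in *D/F*, and at 5.36 to 6.72 and 0.838 to 1.12 TPM in *T/F*. *Ccnd1* was at 2.88 to 11.6 and 1.93 to 2.48 TPM in *D/F*, and at 5.59 to 12.5 and 2.18 to 3.43 TPM in *T/F*. Of 15 genes of the p38 and JNK branch 8 were higher and 2 lower, with a median of 0.32, and *Mapkapk3*, a kinase activated by p38, fell (log2 -1.13 ± 0.11 SE, adjusted p = 1.78e-05). For comparison, 25.8% of all genes were higher and 19.6% lower at any fold over both genotypes. No list was tested as a set.

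**Figure D3:**
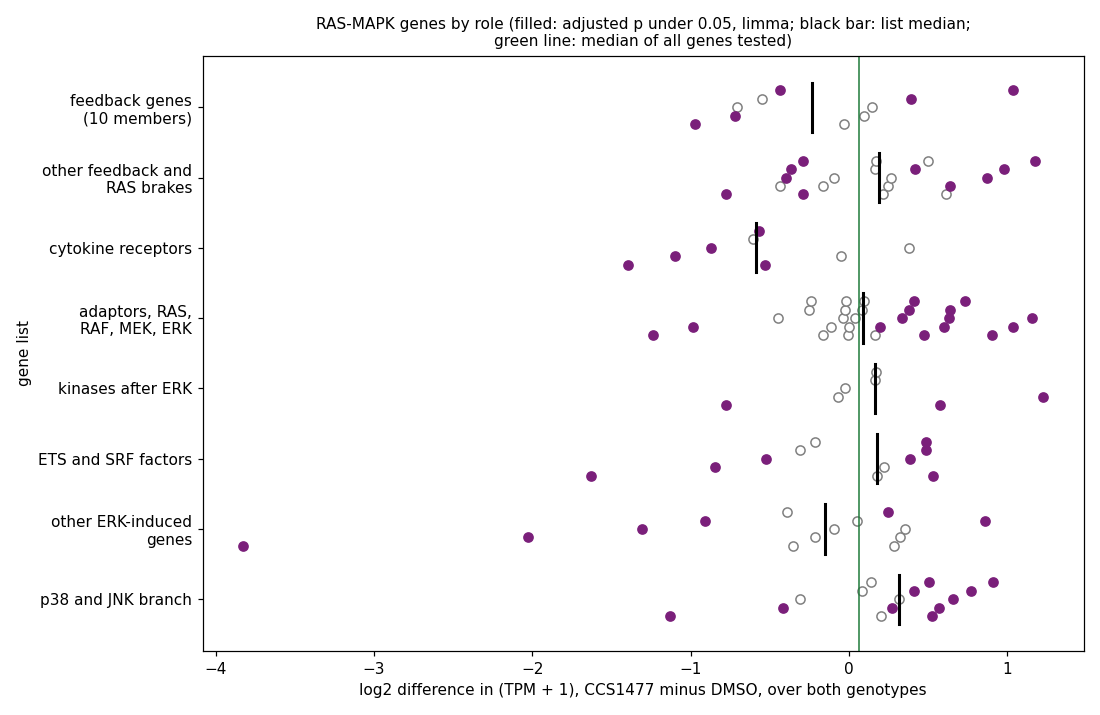
Log2 difference in (TPM + 1) of CCS1477 minus DMSO over both genotypes for the members and 7 lists of pathway genes, with filled points for adjusted p under 0.05 at any fold (limma), a black bar at each list's median and a green line at the median of all genes (0.07). Both the feedback genes and the other ERK-induced genes spread to either side of the line, with *Myc* at -3.83 and *Ier3* at 1.04, while 6 of the 8 receptor genes lie at or below -0.53.

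Some of the members also varied together between mice. After the mean of each of the 4 groups was subtracted from log2(TPM + 1), Pearson's r over the 12 libraries was 0.941 for *Dusp2* with *Dusp4*, 0.935 for *Dusp1* with *Dusp5*, 0.884 for *Dusp4* with *Spred1* and 0.854 for *Dusp2* with *Spred1*. Of the 45 pairs 19 had r above 0.5 and 7 below -0.5. The share of such pairs among all genes was not computed, so these counts do not set the members apart. *Spry2* was on the negative side, with -0.893 against *Dusp2* and -0.830 against *Dusp4*. The values for *Dusp4* rest on levels of 0.501 to 2.00 TPM, near the floor of the table. The 12 libraries come from 6 mice, and 2 libraries of a mouse share its cells and handling, so these values describe differences between 6 animals and carry no test. Without the 2 libraries of *D/F* mouse 2, 21 pairs were above 0.5 and 5 below -0.5, the first 4 pairs kept values of 0.936, 0.914, 0.839 and 0.926, and *Dusp2* with *Spry2* moved to -0.332. *Dusp1* with *Ier3* was at 0.602 over all libraries and at 0.960 without that mouse. *Dusp6* had no pair above 0.5 without it. Under both treatments *T/F* mouse 3 had the highest value of its genotype for *Dusp1*, *Dusp2*, *Dusp4*, *Dusp5* and *Spred1*. Pearson's r without *T/F* mouse 3 was not computed.

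**Figure D4:**
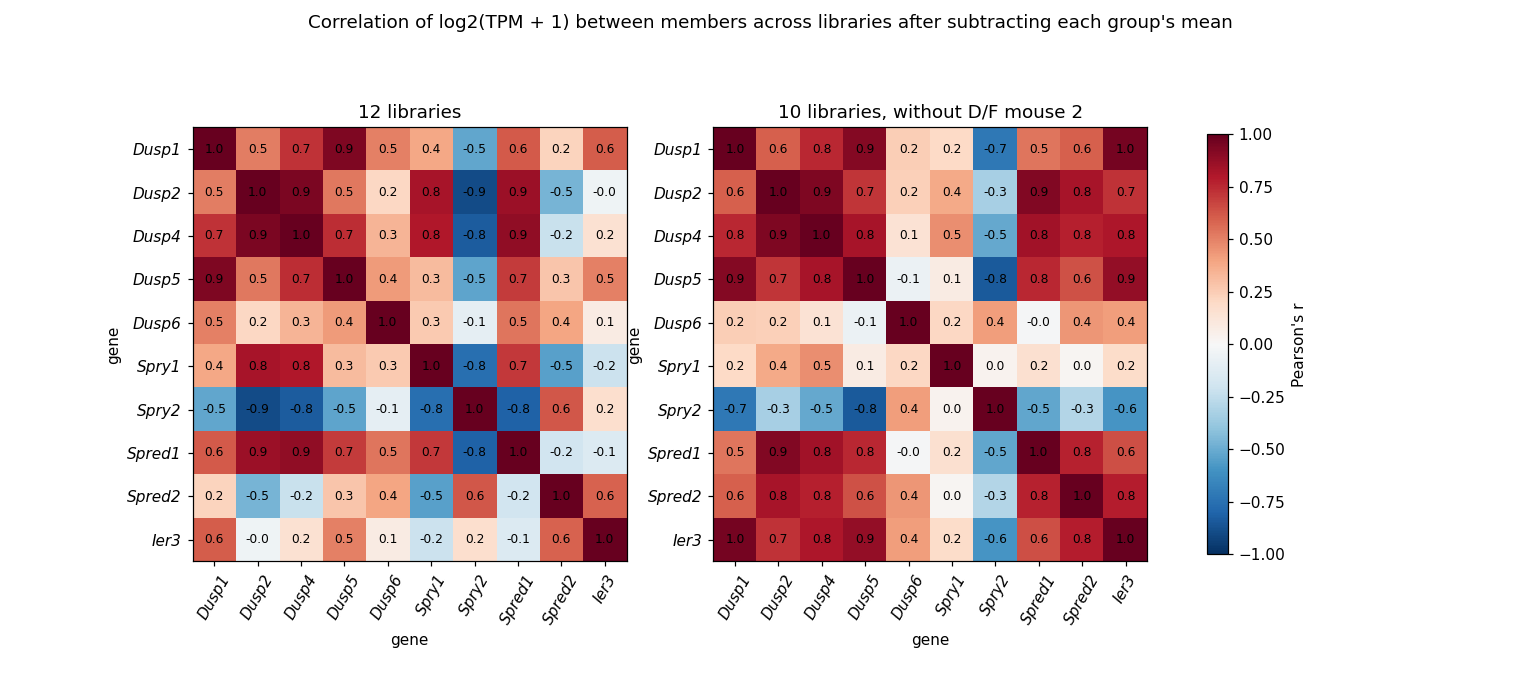
Pearson's r between members for log2(TPM + 1) across libraries after the mean of each group was subtracted, over 12 libraries (left) and over the 10 libraries without *D/F* mouse 2 (right), with red for positive and blue for negative values. *Dusp1*, *Dusp2*, *Dusp4*, *Dusp5* and *Spred1* form a red block in both panels, while *Dusp6* and *Spry1* are pale in the right panel.

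Across all 12 libraries, group differences included, the genes whose pattern was most like that of a member were sought among the 11603 genes averaging 5 TPM or more. *Dusp5* was followed most closely by *Lrrk1* (Pearson's r 0.986) and Gm13546 (0.979), and *Spry1* by Gm15890 (0.981) and *Mycn* (0.972). *Spry2* was nearest to *Zfp143* (0.976) and *Tubb4b* (0.968), *Dusp2* to Gm10125 (0.972) and *Abcc1* (0.969), and *Spred1* to *Nrip1* (0.971) and *Olfr613* (0.966). *Dusp4* had *Slc41a1* (0.955) and *Enpp1* (0.951), *Dusp1* had *Litaf* (0.943) and Gm10203 (0.878), and *Ier3* had BC005624 (0.941) and *Vhl* (0.924). The least close were *Dusp6*, with *Zfp608* (0.922) and *Sptbn1* (0.890), and *Spred2*, with *Alox5* (0.917) and *Fancf* (0.913). No member was among the 2 genes most like another member. These libraries share treatment, genotype and mouse, so high values are common in such a search.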

How the data were processed

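The 12 RNA-seq libraries of c-Kit+ splenocytes, 1 with DMSO and 1 with CCS1477 from each of 6 mice, were analysed. The submitters' processing notes name kallisto and mm10, and the methods of the study name AltAnalyze. The annotation and the strand setting of kallisto are not given in the sources used here. The authors deposited TPM values for 15651 Ensembl genes, each reaching at least 2.00 TPM in a library, of which 15252 had a symbol in the reference table. The reads behind a TPM value are unknown, so no counting interval is given. TPM is a share, so a change in abundant genes shifts all others. Replicates are mice.

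The 10 members, the pathway lists and the marker lists were chosen with earlier results of these data known. Genes averaging 1 TPM or more in a group compared were fitted on log2(TPM + 1) with limma 3.58.1 in R 4.3.3 (moderated test, two-sided, Benjamini-Hochberg over all genes tested). Within genotypes only their own 6 libraries entered, and genotype was a covariate in the fit over both. A CCS1477 response was called if it passed 2-fold with an adjusted p below 0.05, and the other comparisons at that p with any fold. An exact permutation test of 3 against 3 cannot go below 0.1 and was not used. The code was tested on simulated data.

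The DMSO and CCS1477 libraries of a mouse come from 1 animal by their labels, and their deviations from the group means correlated (r 0.539, 0.669 and 0.541 in *D/F*, 0.383, 0.354 and 0.496 in *T/F*; highest between different mice 0.141 and -0.0466), so values with the mouse as a block are given where they change a call. Named genes were all members, up to 3 rises and 3 falls called above 2-fold over both genotypes per pathway list, 6 cytokine receptor genes, the 2 most correlated genes per member, and *Dnmt3a* and *Tet2*. The receptor gene *Csf2rb2* was named in addition. Alternatives were a pseudocount of 0.1 TPM, a filter of 5 TPM and none, rescaling to the median gene and quantile normalization. Others were the moderated test with a mean-variance trend, the block, a shared fit of 4 groups, calls at any fold, and leaving out each mouse. Promoter sequences were from RefSeq. Positions were from GENCODE on GRCm38.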

Additional observations from a re-analysis of the deposited data

How the results depend on the processing

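In *D/F* 1 member was called as reported. The count was 2 when libraries were rescaled to their median gene, quantile normalized or fitted with the mouse as a replicate block, 3 in a shared fit of the 4 groups (*Ier3*, *Dusp5* and *Dusp6*), and 5 with the block at any fold. It ranged from 0 to 1 when a mouse was left out, and was 0 without *D/F* mouse 1 or 3. In *T/F* the count of 0 became 1 with a pseudocount of 0.1 TPM, 2 at any fold and 6 with the block at any fold, and stayed 0 with each mouse left out. Over both genotypes the count of 1 became 3 with a pseudocount of 0.1 TPM, 2 with quantile normalization, 5 at any fold and 6 with the block at any fold, and ranged from 0 to 2 with a mouse left out, being 0 without *D/F* mouse 2 or 3 and 2 without *T/F* mouse 1 or 2. With rescaled libraries and without *D/F* mouse 1 the count stayed 1, but the member called was *Dusp5* (-1.03, adjusted p = 0.0031, and -1.02, adjusted p = 0.0203) and no longer *Ier3*. The alternatives with the block at any fold and the correlations without *D/F* mouse 2 were chosen after seeing the data. For the difference between responses and between genotypes the count was 0 under each alternative. The causes were not tested, except that fewer samples enter when a mouse is left out. Beyond the values given with each gene, the block changed no other call of a member. *Spry2* between genotypes with CCS1477 turned from -0.01 to 0.0022 with rescaled libraries and to 0.055 with quantile normalization. With a library left out, differences that did not pass changed sign as follows. *Spred1* ranged from -0.015 to 0.25 in *D/F* (negative without mouse 3), *Dusp1* from -0.28 to 0.025 in *T/F* (positive without mouse 3) and from -0.015 to 0.26 over both, and *Dusp4* from -0.074 to 0.029 over both. Between responses *Dusp2* ranged from -0.12 to 0.32, *Spry2* from -0.12 to 0.018 and *Spred1* from -0.17 to 0.095. Between genotypes with DMSO the ranges were -0.33 to 0.56 for *Dusp1*, -0.47 to 0.085 for *Dusp2*, -0.29 to 0.0065 for *Dusp4*, -0.17 to 0.48 for *Dusp5*, -0.11 to 0.12 for *Spry2*, -0.22 to 0.25 for *Spred1* and -0.19 to 0.37 for *Ier3*. With CCS1477 they were -0.45 to 0.40 for *Dusp2*, -0.0058 to 0.37 for *Dusp6*, -0.23 to 0.14 for *Spry2*, -0.20 to 0.074 for *Spred1* and -0.17 to 0.19 for *Spred2*. *Spry1* in *D/F*, at an adjusted p of 0.0502 as reported, passed with the smaller pseudocount, with either rescaling and in the shared fit. Over both genotypes the receptor genes lower at any fold numbered 2 to 5 of 8 with the mice *D/F* 1, *D/F* 3 or *T/F* 2 left out or all in, and the 2 higher ERK-induced genes 0 to 1 without *D/F* mouse 1 or 3 or any *T/F* mouse. With a filter of 5 TPM *Dusp4* and *Spry1* were not tested. Reads per library are unknown, which limits *Spry1* and *Dusp4* most.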
